A study of Miniopterus schreibersii with 14 samples.

Results

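The thumb side of the bat forelimb was set against the foot at stages S15-17, when digits have formed in both limbs. The thumb side is 2 libraries, one of forelimb digit I and one of the interdigital tissue next to it, between digits I and II. The foot is 2 libraries, one of hindlimb digits I-V and one of the interdigital tissue between them. These 4 libraries were chosen by their labels, out of 14 in the series, and were matched by tissue, so that digit I stands against hindlimb digits and interdigital tissue I-II against hindlimb interdigital tissue. All are messenger RNA libraries from embryos of the bent-wing bat Miniopterus schreibersii, with no treatment or genetic change named in the labels. A library of S15-17 may hold more than 1 of these stages. The wing region, forelimb digits II-V and the interdigital tissue II-V between them, supplies 2 more libraries of the same stages. Another 8 libraries, from S14 limb buds and fetal metacarpals and metatarsals, stand outside the comparison. The labels do not say how many embryos a library holds or whether parts share an embryo, and no part has a second library.

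Forelimb and hindlimb start as similar buds and are told apart by transcription factors: TBX5 acts in the forelimb, and PITX1 and TBX4 in the hindlimb. Within a bud, a posterior source of the signal SHH and the 5′ HOXD genes set digits apart, and digit I, the thumb or great toe, is the most anterior. Interdigital tissue is the mesenchyme between digit rays, which is lost by cell death where digits become free and is kept in the bat's wing membrane. The thumb and the foot of a bat both have short, free digits, so the comparison asks what differs between forelimb and hindlimb where no wing digit grows. It is not a comparison of limb alone. The thumb side holds the anterior edge of its limb, while the foot libraries hold all 5 digit positions, and limb and position cannot be told apart in it.

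The table holds scores, which are the authors' normalized counts rounded to whole numbers, for 64618 assembled transcript components. A component stands for a transcript or for part of one, and levels of different components are not compared because no lengths are given. The table does not pair components with genes, and 0 of them matched the RefSeq table of 22775 genes, so no component carries a gene name and the labelled tissues could not be checked against marker genes. The 4 libraries held 4550754 to 6828498 reads, of which digit I had the fewest. The tests took the 16255 components whose score averaged 20 or more in these 4, which carry 98.43% of the total score. At the depth of digit I, 41178 components were detected in digit I and 41139 in hindlimb digits, and 45258 in interdigital tissue I-II and 45879 in hindlimb interdigital tissue. The sign of this difference was not the same in the 2 tissues (exact two-sided permutation within pairs, p = 1.0, smallest possible 0.5).

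A small set of components separated thumb side from foot in digit and interdigital tissue alike, and 5 of them did so under nearly every setting tried. Of these, comp14304_c0, comp15554_c0 and comp14042_c0 were higher on the thumb side, and comp3599_c0 and comp7133_c0 were lower there. The higher ones passed the score filter only through the thumb side, as comp14304_c0 and comp15554_c0 had no foot read and comp14042_c0 had 1. In limma, with tissue as a block and the wing region sharing the estimate of the spread, 150 of the 16255 components (0.923%) were called at an adjusted p under 0.05. Of the 150, 75 were higher (0.461%) and 75 lower (0.461%) on the thumb side, with a median size of 1.39 on the log2 scale, and 116 of the 150 differed by at least 2-fold. All 150 had the same sign in both tissues, for which the test selects. The comparison of digit and interdigital differences shows these components along the diagonal. In bulk tissue, fewer cells of a type and less RNA per cell cannot be told apart.

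**Figure D1:**
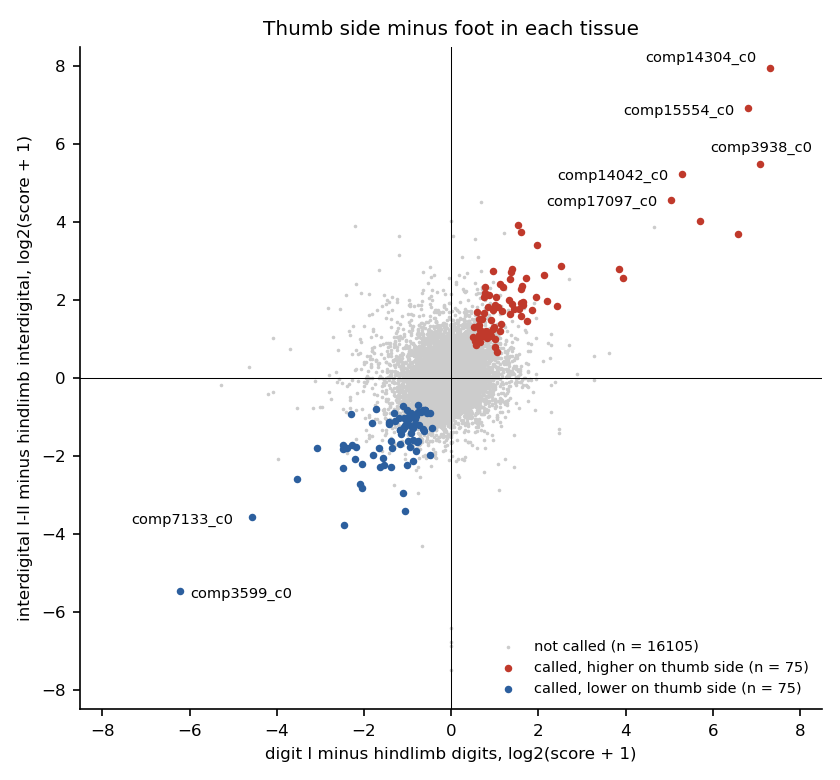
Each point is 1 of 16255 components, with the log2(score + 1) difference between digit I and hindlimb digits on the x axis and between interdigital tissue I-II and hindlimb interdigital tissue on the y axis. Red and blue points are the 75 components called higher and the 75 called lower on the thumb side, and grey points were not called. Of the called components comp14304_c0 lies farthest out above 0, at 7.31 and 7.95, and comp3599_c0 below it, at -6.22 and -5.48.

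The count of 150 leans on a spread borrowed across components, since each component has 2 residual degrees of freedom of its own and the prior adds 14.91. It was 0 in limma with no filter on low scores, where 3619 components had an unadjusted p under 0.05, and 10 when scores had to average 10 over all 14 libraries. Leaving out hindlimb interdigital tissue left 9, while 75 were called without the hindlimb digits, 99 without interdigital tissue I-II, 212 without digit I and 469 or 462 without 1 of the wing libraries. Upper-quartile scaling moved the split to 208 higher and 122 lower. In the fit reported here 1921 components (11.8%) had an unadjusted p under 0.05. Each p weighs a limb difference against how evenly the differences among regions, the wing included, recur over 2 tissues. It does not measure the spread between repeat samples, and embryos and libraries may differ for other reasons. With 1 thumb-side or foot library left out, recurrence of the thumb side minus foot difference is not measured.

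Component comp14304_c0 was a thumb-side component with no read in the foot. Its scores were 158 (digit I) and 247 (interdigital tissue I-II), with 40 and 13 in the wing region's digits and interdigital tissue, and 0 in either foot library. The 3 regions did not overlap, and the wing lay between the other two. Its 245 thumb-side reads against none in the foot make it at least 92.8-fold higher, with a floor of 3 reads over both foot libraries (limma adjusted p = 2.4e-06). Component comp15554_c0 had the same order of regions, with thumb-side scores of 111 and 121, wing scores of 21 and 5, and 0 in either foot library. It was at least 51.5-fold higher by the same floor (limma adjusted p = 7.6e-05). At S14, anterior to posterior, comp14304_c0 scored 27, 0 and 2 in the forelimb bud and 18, 4 and 13 in the hindlimb bud. Component comp15554_c0 scored 11, 2 and 2 in the forelimb bud and 7, 0 and 3 in the hindlimb bud. Both components were at 0 in fetal metacarpals and metatarsals, which do not include the thumb. Since a component could be kept on the strength of 1 side, those with no read on the other are given in full. Components comp14304_c0, comp15554_c0 and comp23989_c0 had none in the foot, and all 3 were called. With both foot scores at 0, any thumb-side reads give the same sign in both tissues, so these calls add no support to the read counts. Components comp17312_c0, comp22315_c0, comp30474_c0 and comp33377_c0 had none on the thumb side or in the wing, and none of the 4 was called.

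Lower on the thumb side were 2 components that were abundant in the foot. Component comp3599_c0 had thumb-side scores of 21 (digit I) and 26 (interdigital), against foot scores of 1636 and 1200. It held 28 reads on the thumb side and 1837 in the foot, which is 57.7-fold more in the foot (exact 95% interval 39.8 to 87.1, counting error only). Its log2 difference was -5.85 (SE 0.35, limma adjusted p = 8.1e-08). The thumb side was not at the wing's level: digits II-V scored 5 and interdigital tissue II-V scored 8, so both thumb-side scores were above both wing scores. Component comp7133_c0 went the other way within the forelimb, with thumb-side scores of 34 and 43, wing scores of 106 and 89 and foot scores of 833 and 523. Its reads were 16.6-fold more in the foot (interval 12.4 to 22.9), and its log2 difference was -4.07 (SE 0.28, limma adjusted p = 2.4e-07).

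Where the wing region lies splits the called components into kinds. Of the 75 called higher on the thumb side, 24 (32%) had both wing libraries nearer the thumb side than the foot, 31 (41.3%) had both nearer the foot, and 20 were split. The 75 called lower had 27 (36%) with the thumb side, 27 (36%) with the foot and 21 split. Over all 9280 components with the same sign in both tissues these shares were 27.6% and 25.2%. The position is a description, because the wing is measured against the same thumb and foot libraries and its spread enters the test.

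**Figure D2:**
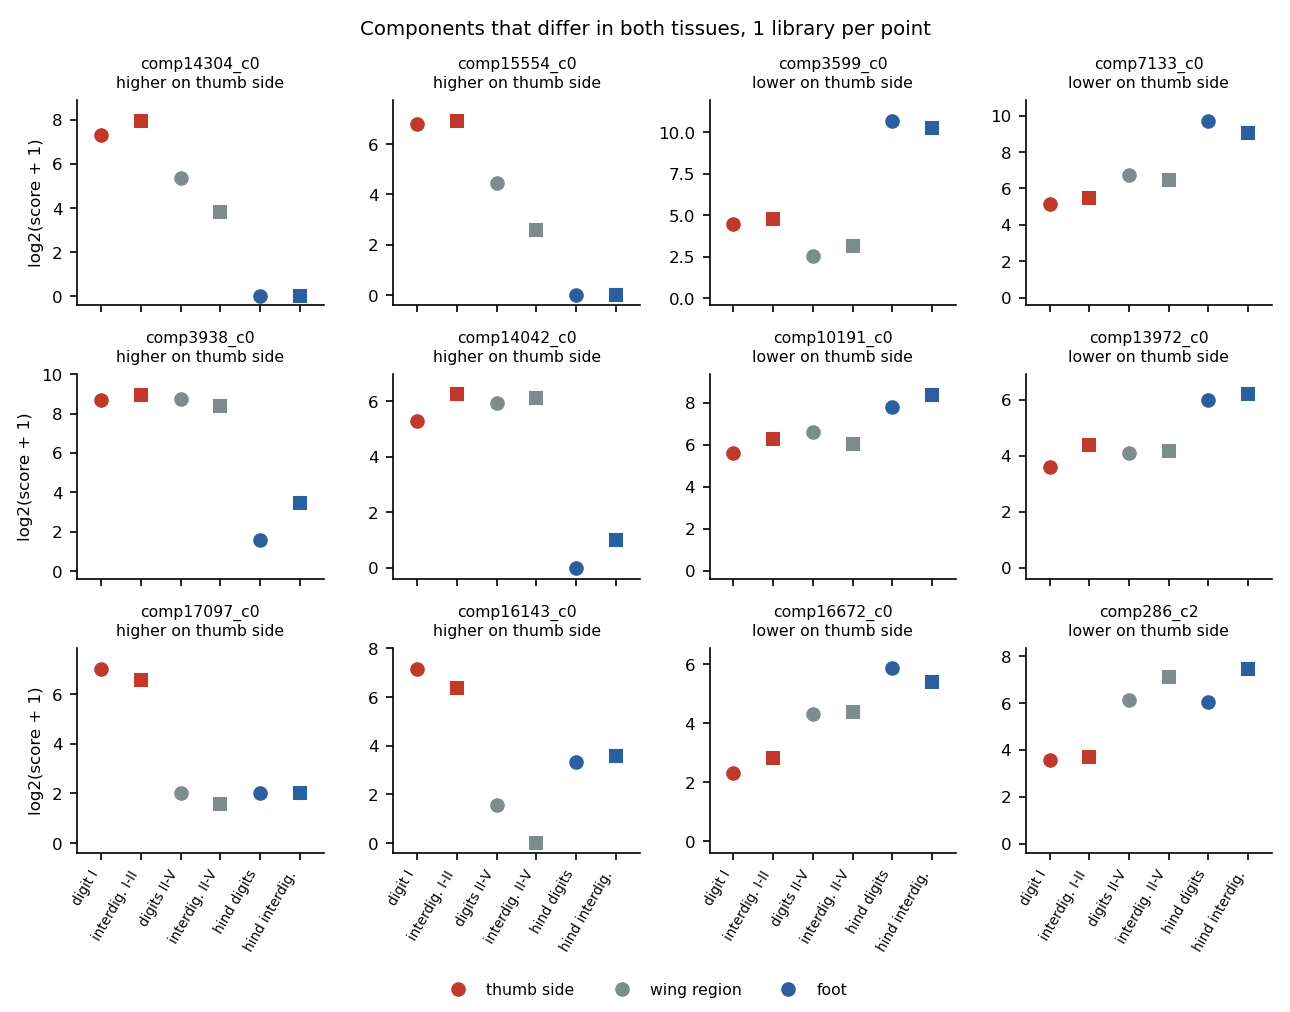
The y axis of each panel is log2(score + 1), with 1 point per library: thumb side (red), wing region (grey) and foot (blue), circles for digits and squares for interdigital tissue. The top row holds the largest differences, the middle row called components with the wing on the thumb's side of the midpoint, and the bottom row components with the wing on the foot's side. For comp3938_c0 the wing scores of 426 and 330 lie with the thumb side, and for comp17097_c0 the wing scores of 3 and 2 lie with the foot.

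Besides comp3599_c0 and comp7133_c0, 4 more components in which the wing lay with the thumb side are described here, chosen after their values were seen. Component comp3938_c0 had thumb-side scores of 404 and 493, wing scores of 426 and 330 and foot scores of 2 and 10. The forelimb libraries do not overlap with the foot, and its thumb-side reads were 75.3-fold those of the foot (interval 37.9 to 175; log2 difference 6.28, SE 0.39, limma adjusted p = 9.6e-08). Component comp14042_c0 had 38 and 75 (thumb side), 61 and 68 (wing) and 0 and 1 (foot), or 70 reads against 1, a ratio of 79.5 with an interval of 13.8 to 3186 (limma adjusted p = 7.9e-05). Lower throughout the forelimb were comp10191_c0, with 47 and 77 (thumb side), 96 and 64 (wing) and 221 and 331 (foot; limma adjusted p = 0.0018), and comp13972_c0, with 11 and 20 (thumb side), 16 and 17 (wing) and 62 and 72 (foot; limma adjusted p = 0.034). In limma, comp10191_c0 lost its call without hindlimb digits (adjusted p = 0.062) or hindlimb interdigital tissue (0.47). The call of comp13972_c0 was lost in limma without digit I (adjusted p = 0.21), hindlimb digits (0.13) or hindlimb interdigital tissue (0.52). With no tissue block, limma called neither comp10191_c0 (adjusted p = 0.063) nor comp13972_c0 (0.19). With no mean-variance trend, limma called none of comp10191_c0 (adjusted p = 0.24), comp13972_c0 (0.15) and comp3938_c0 (0.071). When scores had to average 10 over 14 libraries, limma again called neither comp10191_c0 (adjusted p = 0.21) nor comp13972_c0 (0.31).

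In other components both wing libraries lay on the foot's side of the midpoint between thumb side and foot. Component comp17097_c0 had thumb-side scores of 130 and 94, wing scores of 3 and 2 and foot scores of 3 and 3. That is 126 reads on the thumb side and 4 in the foot, a ratio of 35.8 (interval 13.6 to 133; log2 difference 4.80, SE 0.65, limma adjusted p = 0.00086). Component comp16143_c0 had thumb-side scores of 143 and 82, wing scores of 2 and 0 and foot scores of 9 and 11 (log2 difference 3.32, SE 0.66, limma adjusted p = 0.018). In both, the highest S14 score was in the anterior forelimb bud, at 22 for comp17097_c0 and 54 for comp16143_c0. In the opposite direction, comp286_c2 had thumb-side scores of 11 and 12, wing scores of 70 and 139 and foot scores of 65 and 177 (log2 difference -3.12, SE 0.38, limma adjusted p = 0.00032). Component comp16672_c0 had 4 and 6 (thumb side), 19 and 20 (wing) and 57 and 41 (foot; log2 difference -3.06, SE 0.54, limma adjusted p = 0.0087). In comp16672_c0 the wing was intermediate, with both its scores above the thumb side and below the foot.

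Each of these 4 calls was lost without at least 1 library. In limma, comp17097_c0 missed the threshold without hindlimb digits (adjusted p = 0.054) or hindlimb interdigital tissue (0.079), and comp286_c2 without hindlimb interdigital tissue (0.28). Component comp16672_c0 missed it in limma without hindlimb digits (adjusted p = 0.11) or hindlimb interdigital tissue (0.28), and comp16143_c0 without any 1 of the 4 libraries (0.12 to 0.24). With no tissue block, limma called neither comp16143_c0 (adjusted p = 0.18), comp16672_c0 (0.072) nor comp286_c2 (0.066), and comp16143_c0 also missed with a pseudocount of 0.25 (0.084). With no mean-variance trend, limma again called neither comp16143_c0 (adjusted p = 0.16), comp16672_c0 (0.075) nor comp286_c2 (0.12). The same components missed in limma when scores had to average 10 over 14 libraries (adjusted p = 0.22, 0.19 and 0.12). The log2 differences in these fits kept their sign, which selection for the same sign in both tissues makes likely.

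Among abundant components, which averaged 1000 or more, the 24 called had a median size of 0.86 on the log2 scale. Component comp3641_c0 scored 1549 and 1342 on the thumb side, against 714 and 583 in the foot, with the wing at 678 and 816 near the foot. Its reads were 2.22-fold higher on the thumb side (interval 2.05 to 2.42; log2 difference 1.16, SE 0.18, limma adjusted p = 0.0026). Component comp1103_c0 had thumb-side scores of 1641 and 1276 and foot scores of 757 and 362, and was not called (limma adjusted p = 0.059). It scored 294 and 43 in the wing region, so that both thumb-side and both foot scores lay above the wing. Lower on the thumb side were comp5461_c0, at 887 and 888 against 1993 and 2236 in the foot (log2 difference -1.25, SE 0.17, limma adjusted p = 0.00086), and comp628_c0, at 2440 and 2439 against 4132 and 3933 (log2 difference -0.72, SE 0.14, limma adjusted p = 0.016). In both of these the wing lay with the thumb side, at 952 and 738 for comp5461_c0 and at 2689 and 2497 for comp628_c0. In limma, comp3641_c0 lost its call without digit I (adjusted p = 0.066) or hindlimb interdigital tissue (0.28), comp5461_c0 without hindlimb interdigital tissue (0.19), and comp628_c0 without any 1 of the 4 libraries (0.062 to 0.39). The limma call of comp628_c0 was also lost under upper-quartile scaling (adjusted p = 0.071) and with no tissue block (0.13), and that of comp3641_c0 with no tissue block (0.055). With no mean-variance trend, limma called none of comp3641_c0 (adjusted p = 0.29), comp5461_c0 (0.25) and comp628_c0 (0.38). The same components missed in limma when scores had to average 10 over 14 libraries (adjusted p = 0.19, 0.12 and 0.21). Component comp1103_c0 was called in 9 of 19 limma alternatives. These included both other scalings, a pseudocount of 5, voom, a minimum mean score of 50 and the 4 libraries alone. Their limma adjusted p ran from 1.2e-12 to 0.044, smallest with the 4 libraries alone, where the prior degrees of freedom were infinite. The component missed in limma with robust shrinkage (adjusted p = 0.63), no tissue block (0.57) and no mean-variance trend (0.47). Its log2 difference was 2.24 without digit I and 0.69 without interdigital tissue I-II.

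The S14 and fetal libraries, which the test did not use, were then read for the same components. At S14 each limb bud was cut into anterior, middle and posterior parts, so they give both a forelimb minus hindlimb difference and an anterior minus posterior difference. In limma over the 3 bud pairs and the fetal pair, 4 of 16255 components (0.0246%) were called between forelimb and hindlimb, and 3 of these 4 (75%) were among the 150 (2%): comp3599_c0, comp7133_c0 and comp3938_c0. The difference outside S15-17 was -9.22 for comp3599_c0 (SE 0.48, limma adjusted p = 0.0018), -4.32 for comp7133_c0 (SE 0.41, adjusted p = 0.034) and 7.54 for comp3938_c0 (SE 0.63, adjusted p = 0.020). All 3 had the sign seen between thumb side and foot. Each p here measures how well a limb difference recurs over matched parts with 1 library each, not the spread between embryos. In limma the count was 0 without the middle pair (1812 at an unadjusted p under 0.05), 0 without the posterior pair (605) and 1 without the anterior pair.

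Over the 3 S14 pairs alone limma called 119 components (0.732%), of which 16 were among the 150. That is 13.4% of the 119 and 10.7% of the 150. The sign was the same in 15 of these 16. Besides the 3 components above, they include comp14042_c0, at 4.57 ± 0.29 in the buds (SD, n = 3 pairs; limma adjusted p = 0.010), comp10191_c0 at -2.33 ± 0.34 (adjusted p = 0.0063) and comp16672_c0 at -4.13 ± 1.07 (adjusted p = 0.0024). The exception was comp5461_c0, which scored 337, 230 and 847 in anterior, middle and posterior forelimb buds, against 119, 112 and 461 in the hindlimb buds. Its bud difference was 1.13 ± 0.32 (SD, n = 3 pairs; limma adjusted p = 0.010), whereas it was lower on the thumb side than in the foot. The 3 pairs are parts of a bud with 1 library each, so these SDs and p-values do not measure the spread between embryos.

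Past 2-fold, a limb difference in the buds was found in a minority of the 150, in both directions. The median forelimb minus hindlimb difference at S14 was 0.10 for the 75 components higher on the thumb side and -0.01 for the 75 lower, beside -0.02 over all 16255. A bud difference past 2-fold toward the forelimb was found in 12 of the 75 higher (16%) and one toward the hindlimb in 7 (9.33%), while over all components these shares were 1.32% and 1.92%. Of the 75 lower, 9 (12%) were past 2-fold toward the hindlimb and 4 (5.33%) toward the forelimb. Of the 24 higher components shared with the wing, 4 were past 2-fold toward the forelimb at S14 and 0 toward the hindlimb. Among the 27 lower components shared with the wing, 6 were past 2-fold toward the hindlimb and 2 toward the forelimb.

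The anterior minus posterior difference of the buds was then read in the same way, first for components in which the wing lay with the foot. Of the 31 such components higher on the thumb side, 16 (51.6%) were higher in the anterior part of both buds, beside 27.7% of all components, and 10 (32.3%) were past 2-fold toward anterior and 1 toward posterior. The share anterior in both buds was 29.2% (7 of 24) for higher components with the wing at the thumb and 30% (6 of 20) for those split; the difference between these shares was not tested. For the 31, the median anterior minus posterior difference was 0.59, beside 0.01 over all components. Of the 27 components lower on the thumb side with the wing at the foot, 13 (48.1%) were higher in the posterior part of both buds, beside 27.2% of all, and 9 (33.3%) were past 2-fold toward posterior and 1 toward anterior. The posterior share was much the same in the other lower components, at 12 of 27 (44.4%) with the wing at the thumb and 10 of 21 (47.6%) split, with 3 past 2-fold toward posterior in each. The shares over all components past 2-fold were 1.44% anterior and 1.83% posterior. For the 24 higher components shared with the wing, 1 was past 2-fold toward anterior and 3 toward posterior. Component comp16143_c0 differed by 5.78 in the forelimb bud (24 anterior reads against 0 posterior) and by 2.22 in the hindlimb bud (8 against 1). Component comp16672_c0 differed by -4.09 in the forelimb bud (0 anterior reads against 10 posterior). These values rest on few reads. The bud parts had 1 library each, and both bud measures come from the same 6 libraries.

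**Figure D3:**
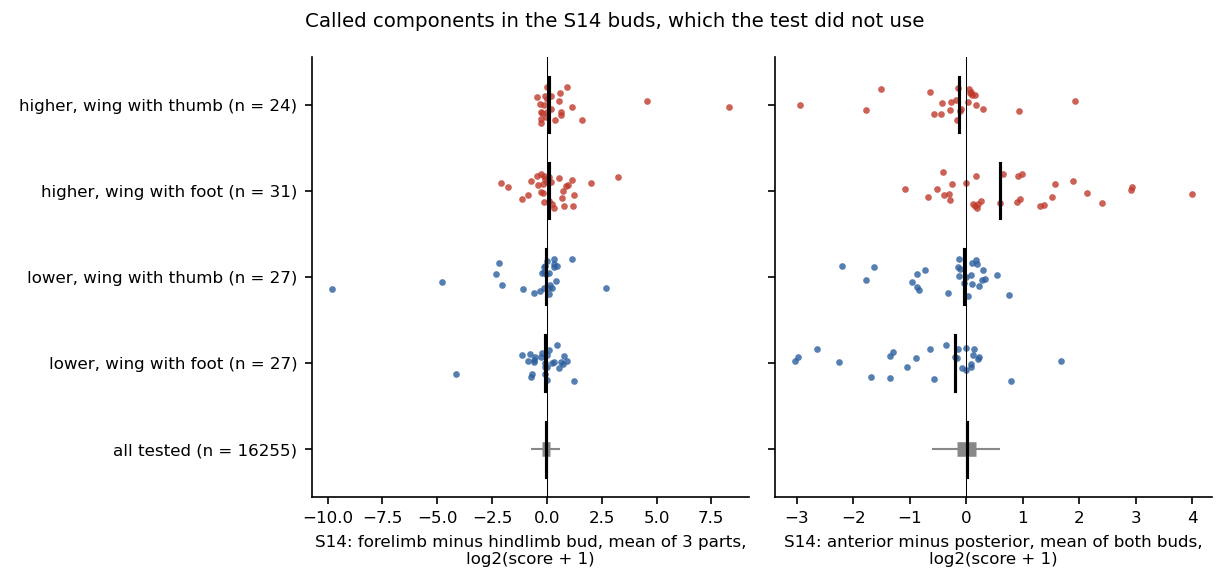
Each point is 1 called component, placed by its mean forelimb minus hindlimb difference over 3 bud parts (left) or its mean anterior minus posterior difference over both buds (right), in log2(score + 1) at S14. Black ticks are medians, and for all 16255 components the thick and thin grey lines span the middle 50% and 90%. In the right panel the 31 components higher on the thumb side with the wing at the foot have a median of 0.59, and the other medians lie near or below 0.

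In the fetal pair, which sets metacarpals of digits II-V against metatarsals I-V and holds no thumb, 40 of the 75 higher components were higher in metacarpals and 44 of the 75 lower were higher in metatarsals. Over all components 49.6% were higher in metacarpals and 48.5% in metatarsals. For the 24 higher components shared with the wing the count was 17 (70.8%), and for the 27 lower ones 18 (66.7%) were higher in metatarsals. With the wing at the foot it was 17 of 31 and 14 of 27. The map of the called components over all libraries shows both kinds.

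**Figure D4:**
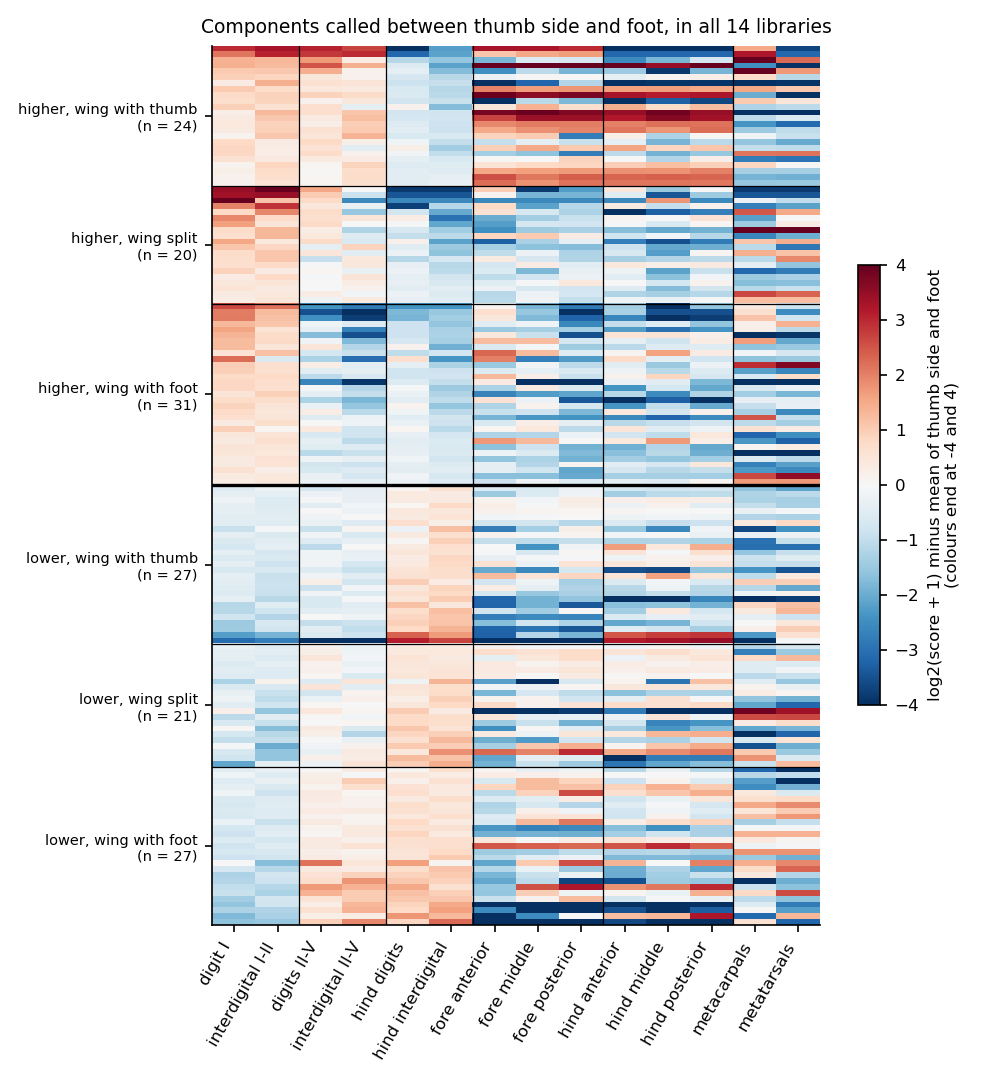
Each line is 1 of the 150 called components, grouped by direction and by the side on which the wing lies, and columns are the 14 libraries. Colour is log2(score + 1) minus the mean of the 4 thumb-side and foot libraries of that line, and ends at -4 and 4. The top 2 lines of the first group, comp3938_c0 and comp14042_c0, and the bottom 2 of the fourth, comp7133_c0 and comp3599_c0, have a forelimb and hindlimb difference of the same sign in the S14 buds.

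More components passed 2-fold in 1 tissue than in both. Past 2-fold, 864 components (5.32%) differed between digit I and hindlimb digits, 323 higher and 541 lower in digit I. Between interdigital tissue I-II and hindlimb interdigital tissue 1221 (7.51%) did, 693 higher and 528 lower on the thumb side. Of all these, 189 (1.16%) passed 2-fold in the same direction in both tissues, 84 higher and 105 lower, and 68 (0.418%) passed it in opposite directions. Past 4-fold the counts were 23 in the same direction (0.141%) and 4 in opposite directions. Of the 68 opposite ones, 55 were higher on the thumb side in interdigital tissue and lower in digit I. A mean score under 100 was found in 55 of the 68 and in 136 of the 189, beside 5838 of all 16255 components. Differences of this size were not particular to thumb side against foot. Within the forelimb, 6.19% of components passed 2-fold between digit I and digits II-V, and 6.15% between interdigital tissues I-II and II-V.

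The root mean square log2 difference was 0.51 between digit I and hindlimb digits, where counting error alone gives 0.31, and 0.60 in interdigital tissue, where it gives 0.26. In components that averaged 1000 or more it was 0.22 and 0.36, with counting error at 0.07 and 0.06. Of 2131 such components, 6 passed 2-fold between digits and 27 between interdigital tissues. Within the forelimb, the root mean square difference over all 16255 components was 0.53 between digit I and digits II-V. It was 0.56 between interdigital tissues I-II and II-V. Across components, the thumb side minus foot differences in digit and interdigital tissue had a Pearson r of 0.28 (Spearman 0.23, n = 16255) and the same sign in 57.1%. For those averaging 1000 or more these were 0.41 and 61.5%. Components are not independent replicates, so these values describe the 4 libraries. Limb and tissue cannot be tested for an interaction here, since 1 library per part leaves no residual.

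Some components passed 2-fold in 1 tissue and stayed under 2-fold in the other. In digit I, comp1181_c0 and comp1220_c0 were low, while the interdigital libraries differed by less than 2-fold. Component comp1181_c0 had digit scores of 19 on the thumb side against 368 in the foot, and interdigital scores of 251 against 335. In reads it was 19.2-fold lower in digit I than in hindlimb digits (interval 9.91 to 42.5), and 1.33-fold lower in interdigital tissue (1.09 to 1.63). Component comp1220_c0 scored 107 in digit I against 754, with 618 against 589 in interdigital tissue, and was 7.06-fold lower in digit I (interval 5.26 to 9.66). The wing had the highest S15-17 scores of both, at 1030 and 1112 for comp1181_c0 and 1978 and 2291 for comp1220_c0. In S14 forelimb buds, anterior to posterior, comp1181_c0 scored 286, 1871 and 1956 and comp1220_c0 scored 520, 4664 and 3908, so that the anterior part was lowest in each.

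Past 2-fold higher in digit I, and under 2-fold in interdigital tissue, were comp12488_c0, at 85 in digit I against 19 in hindlimb digits with 46 against 34 in interdigital tissue, and comp5464_c0, at 850 against 223 with 114 against 203. The read ratio between digits was 4.53 (interval 2.28 to 9.80) for comp12488_c0 and 3.82 (3.12 to 4.69) for comp5464_c0. In interdigital tissue that of comp5464_c0 was 0.563 (0.423 to 0.744), in the opposite direction. Both were far higher in the fetal bones, where comp5464_c0 scored 3854 in metacarpals and 2682 in metatarsals and comp12488_c0 scored 281 and 812.

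Past 2-fold in interdigital tissue and not in digits, comp1255_c0 scored 261 in tissue I-II against 15 in hindlimb interdigital tissue, and 0 in both digit libraries. Its read ratio was 17.5 (interval 9.53 to 35.6), and the wing region had 12 and 3. Its highest scores were in the fetal bones, at 13004 in metacarpals and 9449 in metatarsals, and the part of fetal-type tissue in its S15-17 difference was not tested. Component comp1651_c0 scored 610 against 50 in interdigital tissue, a read ratio of 12.1 (8.64 to 17.4), with 273 against 187 in digits (ratio 1.46, 1.13 to 1.91) and 681 in interdigital tissue II-V. Among the 6 libraries of S15-17, comp17312_c0 and comp22315_c0 had reads in the foot's interdigital library only. Component comp17312_c0 scored 0 in interdigital tissue I-II and 181 in hindlimb interdigital tissue, and comp22315_c0 scored 0 and 117. They were at least 41.8-fold and 27.0-fold lower in the thumb-side tissue, with a floor of 3 reads in that library. Outside S15-17 their only reads were in the posterior hindlimb bud, at scores of 43 and 3.

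**Figure D5:**
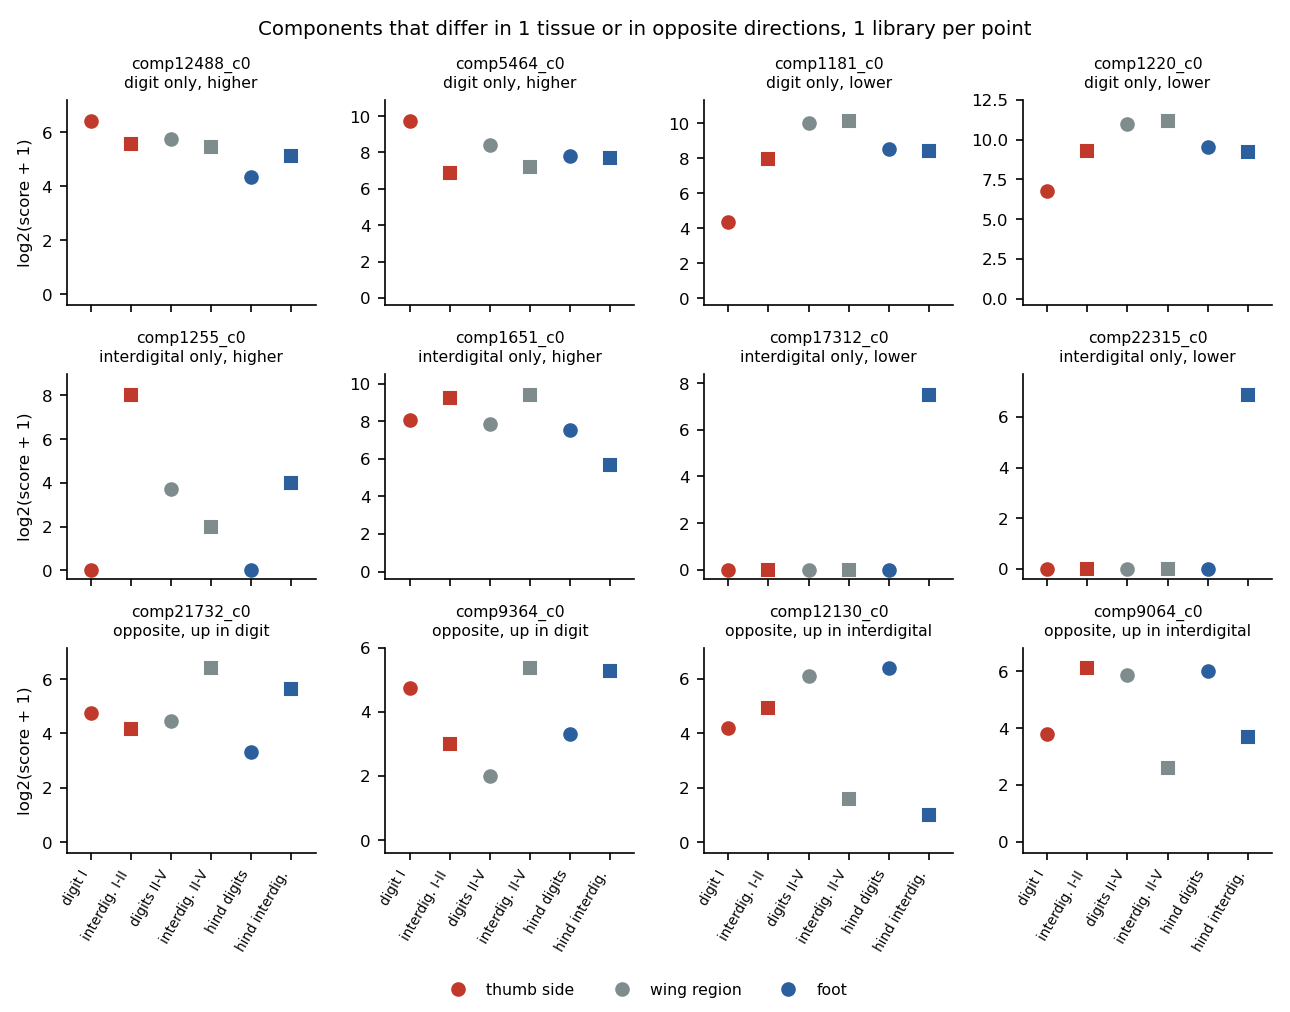
The y axis of each panel is log2(score + 1), with 1 point per library and the colours and symbols of thumb side (red), wing region (grey) and foot (blue), circles for digits and squares for interdigital tissue. The top row holds components past 2-fold between digits and under 2-fold between interdigital tissues, the middle row the converse, and the bottom row components with opposite differences. Among the 6 points, digit I is the lowest for comp1181_c0 and comp1220_c0, and hindlimb interdigital tissue the only point above 0 for comp17312_c0 and comp22315_c0.

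The named components with opposite differences had few reads. Component comp12130_c0 had digit scores of 17 on the thumb side against 82 in the foot, and interdigital scores of 29 against 1. Component comp9064_c0 scored 13 against 63 in digits and 68 against 12 in interdigital tissue. In the wing region both were higher in digits than in interdigital tissue, as in the foot, at 68 and 2 for comp12130_c0 and 57 and 5 for comp9064_c0. The reverse held for comp21732_c0, at 26 against 9 in digits and 17 against 49 in interdigital tissue, and for comp9364_c0, at 26 against 9 and 7 against 38. For these last 2 the read ratio between digits of 2.99 had an interval of 0.98 to 10.8, which includes no difference.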

How the data were processed

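Libraries were TruSeq preparations of DNase-treated total RNA, per the labels' protocols. Tools named are CASAVA 1.8, RSEM and edgeR, per the submitters' processing notes, which give no role or order. The assembly and scaling are not given in the sources used here. The deposited scores are normalized counts rounded to whole numbers, as the deposited table's title and its values show. Low scores fell on rounded multiples of 1 step, the score of 1 read (1.36 to 2.14 in the 4 libraries), which gave the reads; in each of the 4 libraries at least 99.99% of scores above 0 were a whole number of steps after rounding. Since the scores are not raw counts, a test on recovered reads (limma voom) was an alternative only.

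Differences were tested with limma 3.58.1 under R 4.3.3 on log2(score + 1), using its mean-variance trend, over the 6 libraries of S15-17 with tissue as block. The filter kept components whose score averaged 20 or more in the 4 libraries. Adjusted p-values are Benjamini-Hochberg over all kept components, two-sided. A log2 difference on this scale understates changes of low components. Intervals on read ratios are exact 95% intervals, and with the floor of 3 reads cover counting error only. Read ratios and figures used Python 3.11.15, scipy 1.17.1 and matplotlib 3.10.9. The fits were run on simulated data with the same spread beyond counting error for every component and no difference between embryos. Such data cannot check how the calls depend on the borrowed spread or on embryos.

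Components were named by a fixed rule, at most 2 per direction in each of 6 sets: largest called differences, digit only, interdigital only, opposite signs, wing on the foot's side of the midpoint, and abundant. Those with the wing on the thumb's side were added after values were seen, as were the bud readings by wing position. The rule's fixed marker genes (for forelimb and hindlimb identity, cartilage and other cell types) could not be used without gene names. Members, lists and tests were chosen with earlier results of these data known. Alternatives covered pseudocounts, filters, scalings, shrinkage, the block, voom and leaving out libraries; 2 filters and a fit with no trend were added after seeing the data.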

Additional observations from a re-analysis of the deposited data

Results flagged for a closer look

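Of the 68 components past 2-fold in opposite directions in digit and interdigital tissue, the 4 named ones follow, with no test of the difference between tissues since each tissue has 1 library per limb. Component comp12130_c0 differed by -2.21 on the log2 scale between digit I and hindlimb digits and by 3.91 between the interdigital tissues. For comp9064_c0 the values were -2.19 in digits and 2.41 in interdigital tissue. The other way round, comp21732_c0 differed by 1.43 in digits and -1.47 in interdigital tissue, and comp9364_c0 by 1.43 and -2.29.

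Among the named components with the same sign in both tissues, comp5461_c0, comp1181_c0 and comp1103_c0 had the opposite sign in all 3 S14 bud pairs, again with no test of the difference between periods. Component comp5461_c0 differed by -1.25 between thumb side and foot and by a mean of 1.13 between forelimb and hindlimb buds. Component comp1181_c0, which was not called (limma adjusted p = 0.060), differed by -2.31 between thumb side and foot, most of it in digit I. Its mean bud difference was 1.02, with 0.11 in the anterior, 1.11 in the middle and 1.83 in the posterior pair. For comp1103_c0, also not called, the difference was 1.46 between thumb side and foot and a mean of -0.68 in the buds. Of the 75 components called higher on the thumb side, 9 (12%) were lower in the forelimb in all 3 bud pairs and 20 (26.7%) were higher. Of the 75 called lower, 15 (20%) were higher there in all 3 and 19 (25.3%) were lower. Over all 16255 components, 19.8% were lower and 14.3% higher in all 3. Opposite signs were thus less frequent than that among the higher components, at 12%, and more frequent among the lower ones, at 20%. These differences in share were not tested. The S15-17 pairs hold other parts of the limb than the bud pairs.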

How the results depend on the processing

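The 150 calls between thumb side and foot varied widely in number under the 19 alternatives. Every one of the 150 that was tested kept its sign, but this was largely set beforehand. Filters, shrinkage, the block, the trend and dropping wing libraries leave the log2 difference itself unchanged. All 150 also had the same sign in both tissues, so leaving out 1 thumb-side or foot library could hardly reverse them. The count was 0 with no filter (3619 at an unadjusted p under 0.05), 20 with no tissue block, 10 when scores had to average 10 over 14 libraries, 6 with no mean-variance trend, 330 with upper-quartile scaling (208 higher, 122 lower), 242 with median-centred libraries and 462 with the 4 libraries alone. Leaving out 1 library gave 9 to 469. The count was within 1.5 times of 150 under the other alternatives, among them 170 with voom on recovered reads, 147 of them among the 150. The prior degrees of freedom went from 3.64 with no trend and 3.9 with no filter to infinite in the 4-library fit and with upper-quartile scaling; the cause of the changes was not tested. Outside the filter-free fit, 5 components were called under every alternative that tested them. For the 16 components given a limma value, 223 of 294 values stayed on the same side of the threshold, 62 lost the call, 9 gained it and 0 changed sign. The S14 and fetal count of 4 ran from 0 to 119 when 1 pair was left out, at 119 without the metapodials, and was 10 with median-centred libraries. The 189 components past 2-fold in both tissues became 53 with a mean score of at least 100, since fewer components were then counted. Low reads limit the components with a mean score of 20 to 100, in which counting error alone gives a root mean square difference of 0.47 in digits and 0.39 in interdigital tissue.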
